A study of Mus musculus with 77 samples.

Results

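The mitochondrial genome of the mouse encodes 7 subunits of respiratory complex I, and their mRNAs mt-Nd1, mt-Nd2, mt-Nd3, mt-Nd4l, mt-Nd4, mt-Nd5 and mt-Nd6 are described here in RNA, in ribosome-protected fragments (RPFs) and in translation efficiency (TE, the RPF/RNA ratio of a liver). The 7 genes are 7 of 25266 genes in the deposited count tables, and all 7 were among the 10696 genes that passed a filter on low counts. They were chosen by gene name, with earlier values of these data known. The values that prompted the choice were a higher RPF level of mt-Nd4 and mt-Nd5 in Aco1-/- than in Aco1+/+ livers at ZT12, and a low share of mitochondrial RNA in replicate 3 of the Ireb2+/+ livers at ZT5. Accordingly, the Aco1 genotypes at ZT12 in any measure, and RPF or TE against time in the Aco1 line, are given as a description with no test.

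The study profiled livers of adult male mice, 12 to 24 weeks old and on a C57BL/6J background, that lacked iron regulatory protein 1 (IRP1, allele Aco1tm1.1Mwh) or iron regulatory protein 2 (IRP2, allele Ireb2tm1.2Mwh) in the whole body, beside wild-type controls of each line. The 8 groups were Aco1+/+, Aco1-/-, Ireb2+/+ and Ireb2-/- livers at ZT5 (5 hours into the light phase) and at ZT12 (lights off), with 3 livers per group and 24 livers in all. All mice were kept in a light:dark cycle with food at all times, and no group received an agent. Each liver was the source of 1 total RNA and 1 RPF library, made from the same detergent lysate after depletion of rRNA, so the RNA and RPF values of a liver share their source. The lysate holds all cells of the liver, and in such bulk samples fewer cells of a type and less RNA per cell cannot be told apart.

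Complex I, the NADH:ubiquinone oxidoreductase, passes electrons from NADH to ubiquinone at the inner mitochondrial membrane and pumps protons as it does so. Its mitochondrially encoded subunits form the core of the membrane arm, and its other subunits are encoded in the nucleus and imported. Mitochondrial mRNAs are cut from long precursors that are transcribed from both strands of the circular DNA, and they are translated inside the organelle by mitochondrial ribosomes, whose footprints an RPF library also holds. IRP1, in its other form the cytosolic aconitase, and IRP2 bind iron-responsive elements in nuclear-encoded mRNAs of iron metabolism.

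Counts in coding sequences (CDS) ranged from 852293 to 3993492 in the RNA libraries and from 2448915 to 13439600 in the RPF libraries. The 7 mRNAs together had 5938 to 122266 counts per RNA library and 2645 to 18169 per RPF library. The targeted genes went with their labels in RPFs. Aco1, which encodes IRP1, stood at 74.8 to 123.2 RPF CPM (counts scaled to the library's total after upper-quartile normalisation) in the 6 Aco1-/- livers and at 347.1 to 591 CPM in the 6 Aco1+/+ livers, while Ireb2, which encodes IRP2, stood at 32.5 to 41.2 CPM in Ireb2-/- and at 62.3 to 81.4 CPM in Ireb2+/+ livers. All 6 hepatocyte markers (such as Alb and Cps1) were detected in every liver and summed to 111737 to 168847 RNA CPM (marker sums are per CDS counts of the library, with no upper-quartile factor), against at most 651 CPM for any list of markers of Kupffer, endothelial, stellate, bile duct, red or other blood cells.

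The genes lie on the mitochondrial chromosome (MT, assembly GRCm38.p6) in 2 blocks. The first holds mt-Nd1 (ENSMUSG00000064341, positions 2751 to 3707), which encodes the subunit beside the ubiquinone pocket, and mt-Nd2 (ENSMUSG00000064345, 3914 to 4951), which encodes an antiporter-like, proton-pumping subunit. The second holds mt-Nd3 (ENSMUSG00000064360, 9459 to 9806) and mt-Nd4l (ENSMUSG00000065947, 9877 to 10173), which encode small membrane subunits, then mt-Nd4 (ENSMUSG00000064363, 10167 to 11544) and mt-Nd5 (ENSMUSG00000064367, 11742 to 13565), which encode the other antiporter-like subunits. It ends with mt-Nd6 (ENSMUSG00000064368, 13552 to 14070), which encodes another small membrane subunit and is the only mitochondrial mRNA transcribed from the opposite strand. The frames of mt-Nd4l and mt-Nd4, which share an mRNA, overlap by 7 bp. Those of mt-Nd5 and mt-Nd6 overlap by 14 bp on opposite strands, and since the strand setting of the counting is not given in the sources used here, counts of mt-Nd6 and of RNA antisense to it cannot be told apart.

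Per kilobase of gene, RNA levels of the 7 mRNAs spanned a wide range. The median over 24 livers was highest for mt-Nd1, at 5507 CPM per kb, followed by mt-Nd2 at 3838, mt-Nd5 at 2212, mt-Nd4 at 1759 and mt-Nd6 at 1204 CPM per kb. Each of these stood above its next neighbour in 23 or 24 of 24 livers. Far lower were mt-Nd3, at 235 CPM per kb, and mt-Nd4l, at 88.7 CPM per kb, although mt-Nd4l and mt-Nd4 lie on the same mRNA.

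In RPFs per kilobase the order was another. The median was highest for mt-Nd6, at 494 CPM per kb, ahead of mt-Nd2 at 301, mt-Nd1 at 250, mt-Nd5 at 193 and mt-Nd4 at 67.5 CPM per kb. The light-strand mRNA mt-Nd6 was thus behind 4 of the other members in RNA and ahead of all of them in RPFs, where it exceeded mt-Nd2 in 22 of 24 livers. At the bottom were mt-Nd4l with 17.5 and mt-Nd3 with 5.69 RPF CPM per kb, which rested on 8 to 80 and 4 to 31 counts per library.

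The log2 TE of every member was negative at the median, which means a smaller share of RPF counts than of RNA counts. Its median over 24 livers was -1.45 for mt-Nd6, -2.16 for mt-Nd4l, -3.42 for mt-Nd5, -3.60 for mt-Nd2, -4.49 for mt-Nd1, -4.57 for mt-Nd4 and -5.08 for mt-Nd3. Some neighbours were not separated: mt-Nd5 exceeded mt-Nd2 in 18 of 24 livers, by 0.17 ± 0.18 (mean ± SD), and mt-Nd1 exceeded mt-Nd4 in 14 of 24, by 0.10 ± 0.35. Between mt-Nd2 and mt-Nd1 the order held in 24 of 24 livers, with a difference of 0.87 ± 0.21. The deposited counts do not separate footprints of cytosolic from those of mitochondrial ribosomes, so these ratios rank the mRNAs in these libraries only.

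**Figure D1:**
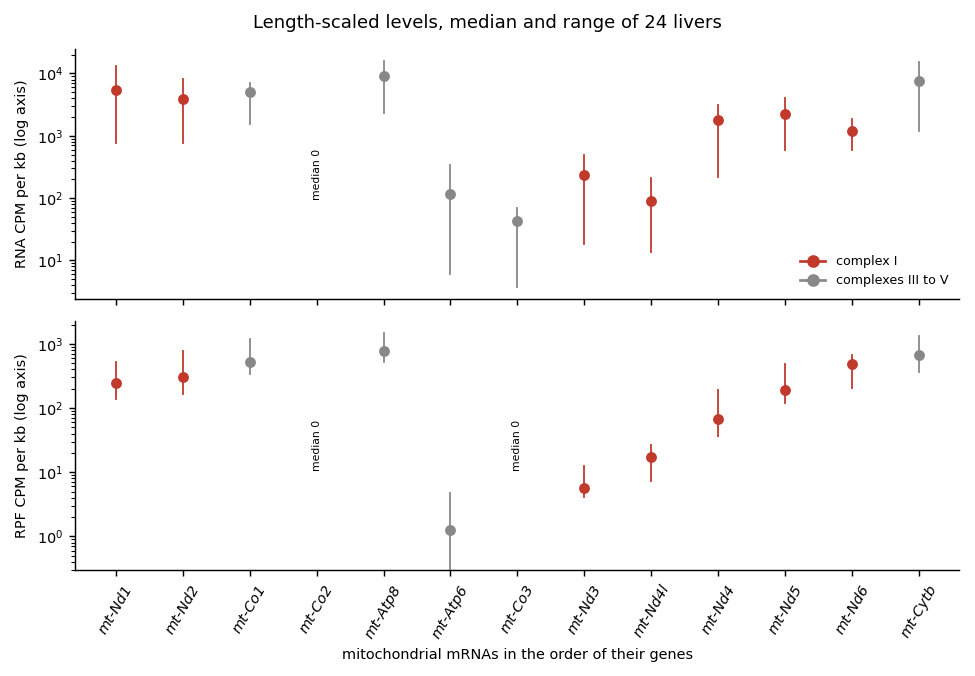
Levels of the 13 mitochondrial mRNAs per kilobase, in the order of their genes, in RNA (upper) and RPFs (lower), as CPM per kb on log axes, with points at the median and lines over the range of 24 livers (a line that meets the lower edge reaches 0). The complex I mRNAs mt-Nd3 and mt-Nd4l lie next to mt-Co2, mt-Atp6 and mt-Co3 in a stretch of low levels, and mt-Nd6 is the highest complex I mRNA in RPFs, at a median of 494 CPM per kb.

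The low levels of mt-Nd3 and mt-Nd4l belonged to a stretch of the chromosome. Its other genes were mt-Co2, which had 0 counts in all 48 libraries, mt-Atp6, at a median of 115 RNA CPM per kb, and mt-Co3, at 43.0 RNA CPM per kb and a median of 0 in RPFs. Within the same stretch mt-Atp8 was not low. The table also lists pseudogenes with mitochondrial names (Gm10925, Gm10222, Gm28437, Gm28661, Gm28438 and Gm29216), all at 0 counts in the 48 libraries. Nuclear copies of mitochondrial DNA can share reads with the mitochondrial genes, so the values of mt-Nd3 and mt-Nd4l are uncertain as levels, and the part of such copies in them was not tested.

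A single liver stood apart before any comparison. In replicate 3 of the Ireb2+/+ livers at ZT5, the 7 mRNAs took 0.426% of the CDS counts in RNA, against 1.87% and 1.94% in the other livers of its group and 1.52% to 3.75% across the other 23 livers. Its RNA CPM were lower than the mean of the other livers of its group by 6.81-fold for mt-Nd1, 4.76-fold for mt-Nd2, 12.3-fold for mt-Nd3, 4.73-fold for mt-Nd4l, 8.11-fold for mt-Nd4 and 3.88-fold for mt-Nd5. All 6 of these mRNAs were at their lowest of the 24 livers there.

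The exception was mt-Nd6, which stood at 531 RNA CPM in that liver against 559 and 609 CPM, a ratio of 1.10. Its share of the 13 mitochondrial mRNAs was consequently 6.97% there and 1.73% and 1.75% in the others. RPFs of the 7 mRNAs were 1.59 to 2.25 times lower in that liver than in the others of its group, a smaller gap, so that log2 TE was at its highest of 24 livers for every member but mt-Nd6 (for mt-Nd1, -2.03 against -3.75 and -4.12). The RNA library of that liver held 1395421 CDS counts, against 2965660 in replicate 1, 1394725 in replicate 2 and a median of 2103620 over the 24 RNA libraries. Of all its counts, 66.7% were in the CDS column, the highest of 24. Its bile duct markers summed to 18.6 CPM, also the highest of 24, and its hepatocyte markers to 120341 CPM. The part of these in the low values was not tested. For comparisons between groups that use this liver, the main values are given with and without it, while levels over 24 livers include it. Since its low RNA was among the values behind the choice of genes, results that include it are not independent of the choice.

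**Figure D2:**
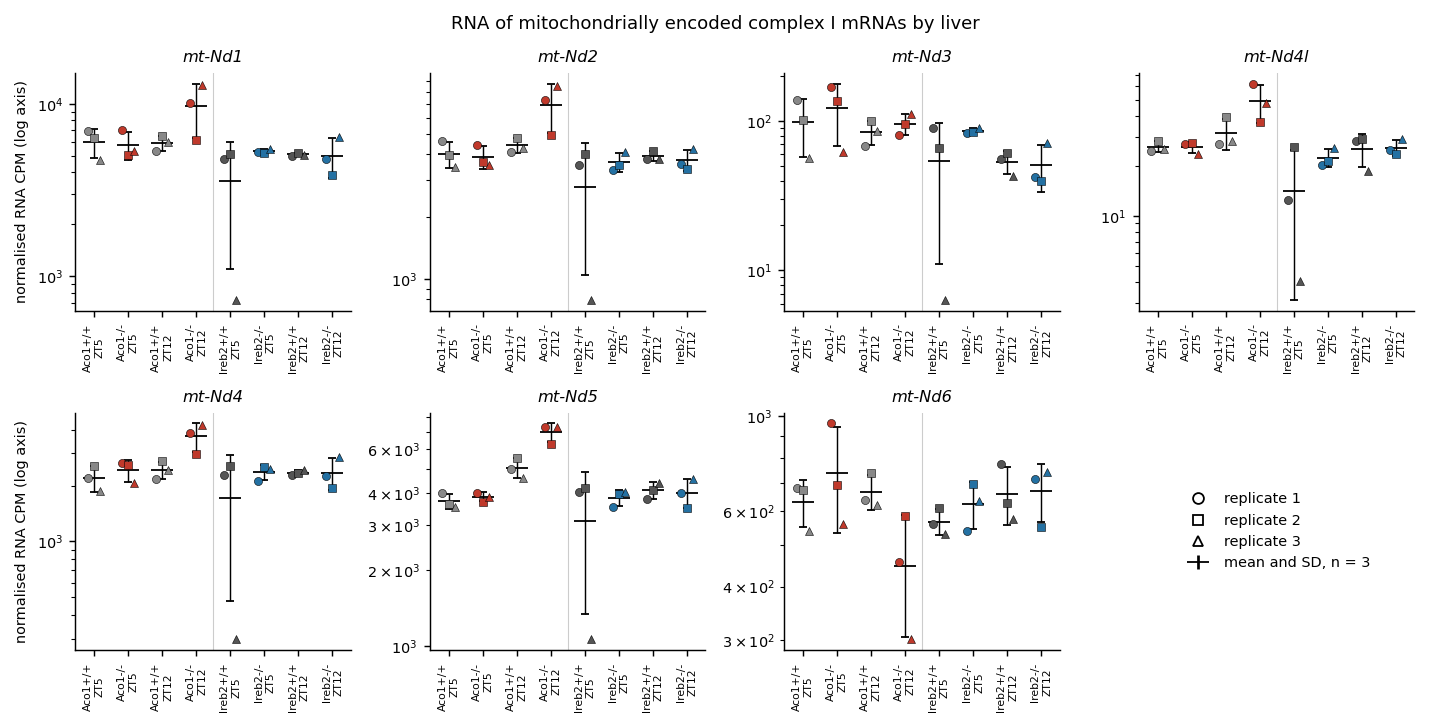
RNA of the 7 mRNAs in each liver, as upper-quartile normalised CPM on log axes, by genotype and timepoint, with symbols for replicates 1 to 3 and bars at the mean and SD of 3 livers. Replicate 3 of Ireb2+/+ at ZT5 lies far below all others except for mt-Nd6 (531 CPM), and the Aco1-/- livers at ZT12 stand high for mt-Nd2, mt-Nd4 and mt-Nd5.

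In RNA, 4 of the 7 members were higher at ZT12 than at ZT5 in Aco1-/- livers. The ZT12 livers of the Aco1 line are those whose RPFs chose mt-Nd4 and mt-Nd5, and the RNA and RPFs of a liver come from the same lysate (r of 0.52 between them for mt-Nd5 over 24 livers), so the RNA tests against time that use these livers are not independent of the choice and support nothing on their own. The RNA level of mt-Nd5 was 4032, 3717 and 3892 CPM at ZT5 and 7333, 6289 and 7296 CPM at ZT12, a log2 rise of 0.85 (SE 0.13, adjusted p = 5.58e-05, edgeR's quasi-likelihood test). The RNA level of mt-Nd2 rose from 4442, 3685 and 3532 CPM to 7262, 4922 and 8480 CPM, by 0.83 on the log2 scale (SE 0.16, adjusted p = 0.00109, edgeR). Neither gene's groups overlapped.

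The proton-pumping subunit mRNA mt-Nd4 rose by 0.60 in log2 RNA (SE 0.15, adjusted p = 0.0127, edgeR), from 2658, 2574 and 2053 CPM to 3849, 2965 and 4225 CPM. This call was lost when replicate 3 of Aco1-/- was left out at either timepoint, with an adjusted p of up to 0.0925. The low-count mt-Nd4l rose by 0.86 (SE 0.19, adjusted p = 0.00528, edgeR), from 26.9, 27.3 and 23.7 CPM to 62.1, 36.9 and 47.6 CPM. By edgeR 4 of 7 members were called higher and 0 lower, where 5.15% of all genes tested were called in either direction.

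The other members of this comparison did not pass. For mt-Nd1, RNA was 7013, 5064 and 5303 CPM at ZT5 and 10053, 6195 and 12826 CPM at ZT12, with a log2 difference of 0.74 (SE 0.22, adjusted p = 0.0731, edgeR). The light-strand mRNA mt-Nd6 was on the other side, with 962, 692 and 561 CPM at ZT5 and 456, 585 and 301 CPM at ZT12, a log2 difference of -0.72 (SE 0.22, adjusted p = 0.0641, edgeR). The ranges of both genes overlapped between the timepoints, and both passed with DESeq2 (adjusted p = 0.0072 and 0.0462), which called 6 of 7 members and 5% of all genes. Of 10 alternatives, mt-Nd1 passed in 4, with TMM and DESeq2 size factors among them, and mt-Nd6 in 3, with the replicate block (adjusted p = 0.00295, edgeR) among them. For mt-Nd3 the log2 difference was -0.33 (SE 0.40, adjusted p = 0.719, edgeR).

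In Aco1+/+ livers the difference between timepoints was smaller. RNA of mt-Nd5 was 4030, 3621 and 3536 CPM at ZT5 and 5000, 5539 and 4617 CPM at ZT12, a log2 rise of 0.44 (SE 0.13, adjusted p = 0.0351, edgeR). It was the only member called, 1 of 7 against 7.05% of all genes, and the call was lost in 5 of 6 fits with 1 liver left out, with an adjusted p of up to 0.208. The other 6 members lay between -0.23 and 0.28 on the log2 scale. Whether the time difference itself differed between Aco1-/- and Aco1+/+ livers was not tested, since the ZT12 livers of the line were among the values that chose the genes.

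Over the 4 genotypes together, 2 of 7 members were called in RNA, against 22.1% of all genes. RNA of mt-Nd4l was higher at ZT12 by 0.55 on the log2 scale (SE 0.15, adjusted p = 0.00952, edgeR), and that of mt-Nd5 by 0.44 (SE 0.15, adjusted p = 0.0479, edgeR). Without replicate 3 of Ireb2+/+ at ZT5 these became 0.47 (adjusted p = 0.00155, edgeR) and 0.35 (adjusted p = 0.00108, edgeR), whereas mt-Nd5 passed in only 5 of 24 fits that left out 1 liver. The Aco1 livers at ZT12 and replicate 3 of Ireb2+/+ at ZT5, whose values were behind the choice of genes, enter this comparison. Its calls are thus not independent of the choice and support nothing on their own. In Ireb2+/+ livers alone, without that replicate, the time difference was -0.01 (SE 0.13) for mt-Nd5 and 0.57 (SE 0.25) for mt-Nd4l.

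At ZT5 the Aco1 genotypes did not differ detectably in any member. In RNA the log2 differences between Aco1-/- and Aco1+/+ ran from -0.05 to 0.28 with a median of 0.06, in RPFs from -0.35 to 0.08 with a median of -0.15, and in TE from -0.49 to 0.09 with a median of -0.22. For mt-Nd5 they were 0.06 (SE 0.13) in RNA and -0.15 (SE 0.14) in RPFs, and for mt-Nd4 -0.07 (SE 0.18) in RPFs. By edgeR's quasi-likelihood test 0 of 7 members were called in RNA (0% of all genes were, with 399 genes under an unadjusted p of 0.05), 0 of 7 in RPFs (0.00935% of all genes) and 0 of 7 in TE (0.00935% of all genes), and 0 members were under an unadjusted p of 0.05 in each. DESeq2 called 0 members in each as well. In TE every Aco1-/- liver was below every Aco1+/+ liver for 1 of 7 members, mt-Nd6 (-1.94, -1.40 and -1.65 against -1.06, -1.09 and -1.39), as were 4.76% of all genes. Red cell markers were lower in Aco1-/- livers at ZT5 (6.76 to 19.5 against 35.4 to 68.9 CPM), and their part was not tested. With so few genes of any kind called, a missing call says little here.

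At ZT12 the RPF level of the 3 antiporter-like subunit mRNAs was higher in all Aco1-/- than in all Aco1+/+ livers. The level of mt-Nd5 was 832, 843 and 885 RPF CPM in Aco1-/- and 418, 427 and 325 RPF CPM in Aco1+/+ livers, a log2 difference of 1.13 (SE 0.14). That of mt-Nd4 was 190, 204 and 259 against 106.8, 93.4 and 67.6 RPF CPM, a log2 difference of 1.29 (SE 0.18). These 2 genes were selected on this very difference, so it is no finding.

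The mRNA of the other such subunit, mt-Nd2, was at 808, 683 and 690 RPF CPM in Aco1-/- and 313, 312 and 246 RPF CPM in Aco1+/+ livers, a log2 difference of 1.33 (SE 0.20). For mt-Nd1 the levels were 430, 400 and 492 against 271, 249 and 191 RPF CPM, a log2 difference of 0.89 (SE 0.23). Altogether 4 of 7 members had every Aco1-/- liver above every Aco1+/+ liver in RPFs, as did 9.83% of all genes, a contrast that the choice of genes had used. In these 4 mRNAs the Aco1-/- livers at ZT12 were also above the Aco1-/- livers at ZT5.

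**Figure D3:**
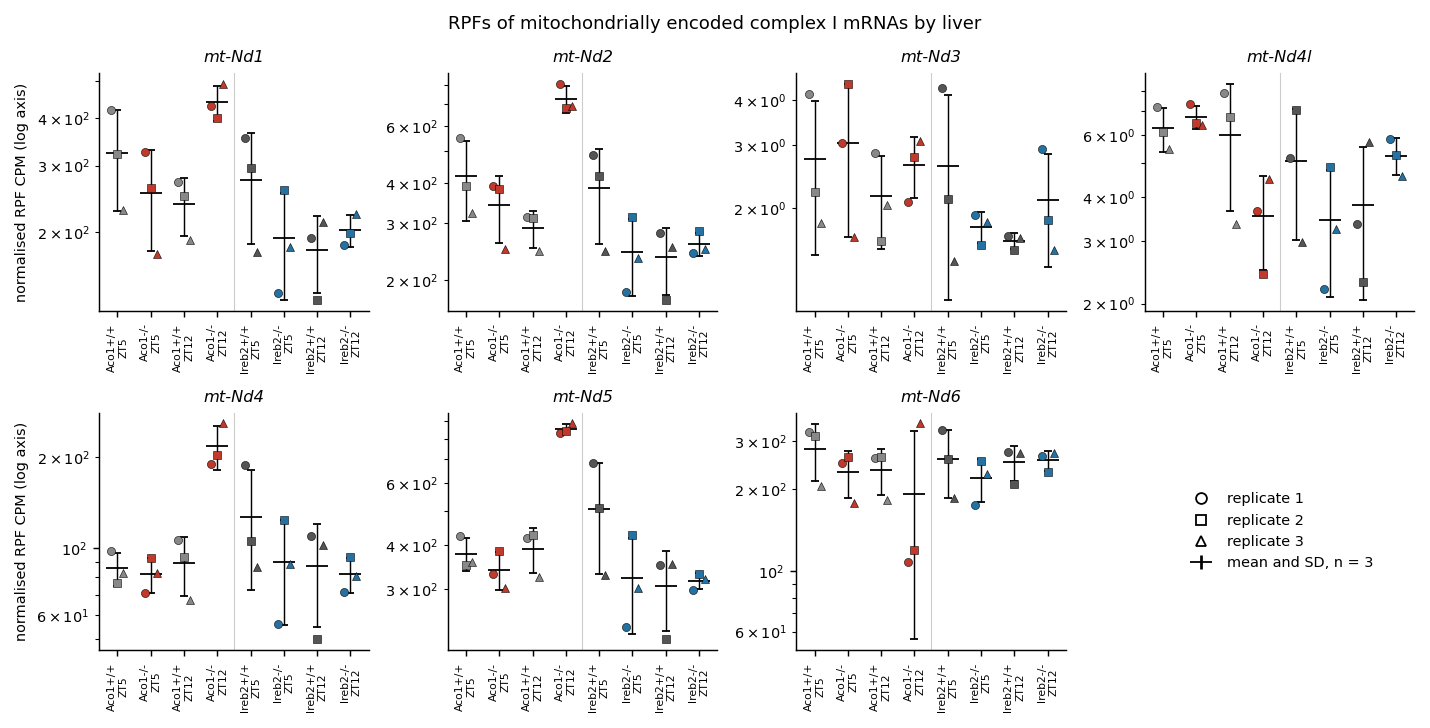
RPFs of the 7 mRNAs in each liver, as upper-quartile normalised CPM on log axes, by genotype and timepoint, with symbols for replicates 1 to 3 and bars at the mean and SD of 3 livers. The 3 Aco1-/- livers at ZT12 lie above all other groups for mt-Nd2, mt-Nd4 and mt-Nd5 (832 to 885 CPM for mt-Nd5), and for mt-Nd6 replicate 3 of that group lies apart from its other 2 livers.

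The remaining members behaved otherwise in RPFs. The level of mt-Nd6 was 108.01, 119 and 349 RPF CPM in Aco1-/- and 260, 262 and 183 RPF CPM in Aco1+/+ livers at ZT12, so that the 2 lowest values and the highest of all 24 livers were in this group. The log2 difference was -0.29 (SE 0.42), and -1.05 without replicate 3 of Aco1-/-. Counts of mt-Nd4l, at 3.66, 2.43 and 4.52 against 7.89, 6.76 and 3.36 RPF CPM, gave -0.75 (SE 0.31) with overlapping groups, and those of mt-Nd3 gave 0.26 (SE 0.38), which turned to -0.57 with the first sequencing run alone.

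As a share of the RPF counts of the 13 mitochondrial mRNAs, mt-Nd6 took 2.04%, 2.27% and 5.51% in Aco1-/- livers at ZT12 against 8.34%, 8.48% and 7.40% in Aco1+/+ livers. Shares of mt-Nd5 were 15.7%, 16.0% and 14.0% against 13.4%, 13.8% and 13.1%. In replicate 3 this lower share of mt-Nd6 came with its highest RPF level of the 24 livers, and in replicates 1 and 2 with its lowest. The 7 members together took 0.187%, 0.196% and 0.225% of all CDS counts in RPFs there, and 0.0842% to 0.119% in Aco1+/+ livers at ZT12.

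In RNA at ZT12, mt-Nd1, mt-Nd2, mt-Nd4 and mt-Nd5 differed in the same direction as in RPFs and by less, mt-Nd4l lay on the other side than in RPFs, and mt-Nd6 lay lower. In RPFs the mt-Nd6 difference had no clear direction, lying between -1.05 and -0.002 with 1 liver left out. The log2 difference between Aco1-/- and Aco1+/+ livers was 0.71 (SE 0.22) for mt-Nd1, 0.65 (SE 0.16) for mt-Nd2, 0.60 (SE 0.15) for mt-Nd4, 0.46 (SE 0.13) for mt-Nd5, 0.56 (SE 0.19) for mt-Nd4l and 0.19 (SE 0.40) for mt-Nd3. Every Aco1-/- liver was above every Aco1+/+ liver for mt-Nd2, mt-Nd4 and mt-Nd5, that is for 3 of 7 members and 5.41% of all genes. The only member lower in Aco1-/- livers in RNA was mt-Nd6, at 456, 585 and 301 against 638, 737 and 621 RNA CPM, a log2 difference of -0.58 (SE 0.21). It was also the 1 member below without overlap, as were 6.15% of all genes.

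Within Aco1-/- livers at ZT12, replicate 2 had the lowest RNA of mt-Nd1 (6195 against 10053 and 12826 CPM) and the highest of mt-Nd6 (585 against 456 and 301 CPM). Replicate 3 had the highest RNA of mt-Nd1 and the lowest of mt-Nd6. Hepatocyte markers summed to 135496 to 151800 CPM in these 3 livers and to 143367 to 159271 CPM in Aco1+/+ livers at ZT12, ranges that overlap, while stellate markers were lower (446 to 502 against 510 to 534 CPM). Replicate 3 also stood apart in markers of other cells, with 17.5 CPM for the bile duct list and 1.53 CPM for the red cell list, against 76.3 and 92.8 CPM for the red cell list in the others of its group. The part of these in the mt-Nd6 values was not tested.

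In TE, the members again differed among themselves at ZT12. The log2 TE of mt-Nd5 was -3.14, -2.90 and -3.04 in Aco1-/- and -3.58, -3.70 and -3.83 in Aco1+/+ livers, a difference of 0.67 (SE 0.12). Differences of 0.72 (SE 0.17) for mt-Nd2 and 0.71 (SE 0.22) for mt-Nd4 also came without overlap, so that 3 of 7 members were above, as were 6.25% of all genes. For mt-Nd4l log2 TE was -4.04, -3.87 and -3.37 against -1.76, -2.51 and -3.03, a difference of -1.36 (SE 0.31), the 1 member below without overlap where 4.87% of all genes were.

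For mt-Nd1 the TE difference was 0.25 (SE 0.22). The log2 TE of mt-Nd6 was -2.08, -2.29 and 0.21 in Aco1-/- livers, where replicate 3 held the highest value of the 24 livers, and -1.29, -1.49 and -1.76 in Aco1+/+ livers, a difference of 0.13 (SE 0.59) that became -0.67 without that liver. A mean over these 3 livers therefore describes none of them.

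**Figure D4:**
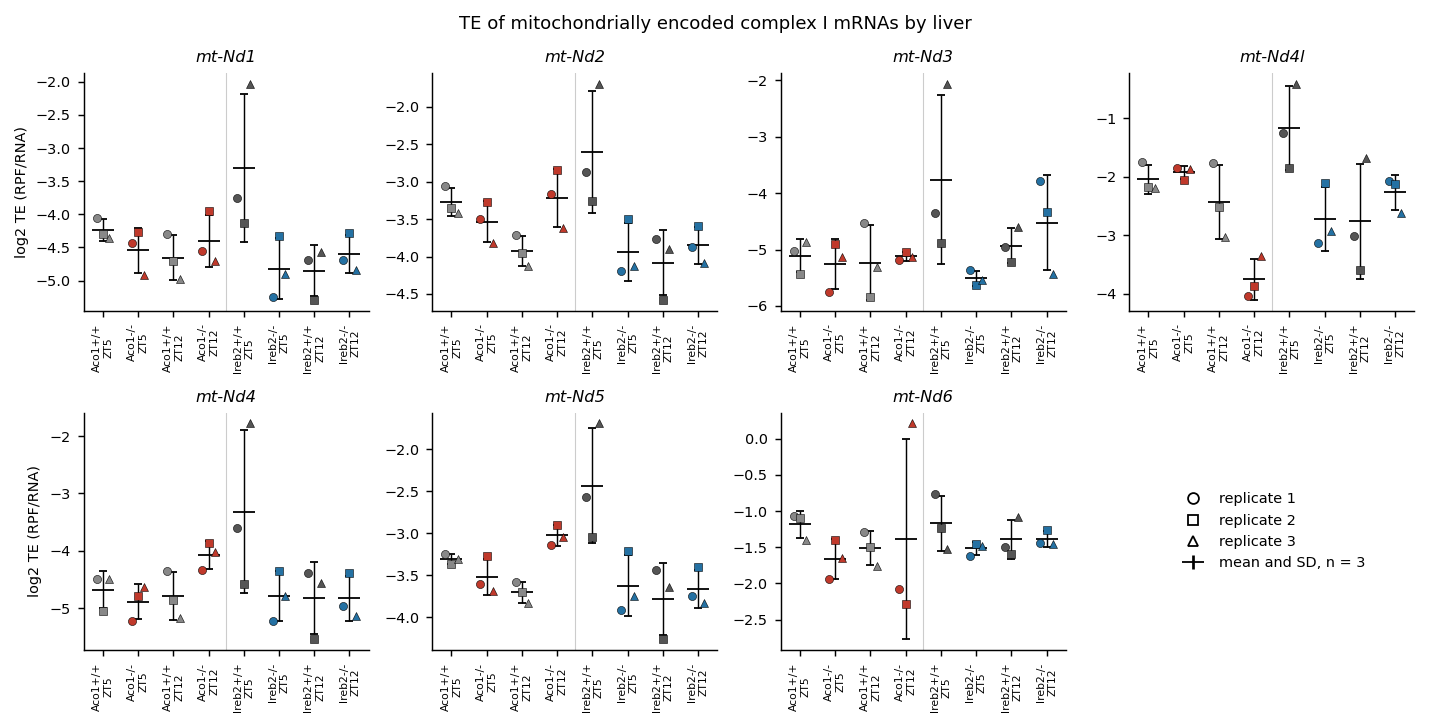
log2 TE (RPF/RNA ratio of a liver) of the 7 mRNAs by genotype and timepoint, with symbols for replicates 1 to 3 and bars at the mean and SD of 3 livers. Replicate 3 of Ireb2+/+ at ZT5 is the highest liver for every member but mt-Nd6, and for mt-Nd6 the highest is replicate 3 of Aco1-/- at ZT12 (0.21).

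The other mitochondrial mRNAs with high counts, which encode subunits of complexes III, IV and V, give the setting for the ZT12 values. In RPFs mt-Cytb, mt-Co1 and mt-Atp8 were higher in Aco1-/- by 0.94 (SE 0.17), 0.96 (SE 0.17) and 1.03 (SE 0.17) on the log2 scale, near the 0.89 of mt-Nd1. In RNA the differences were 0.62 (SE 0.19) for mt-Cytb, 0.13 (SE 0.13) for mt-Co1 and 0.52 (SE 0.19) for mt-Atp8. The higher RPF level at ZT12 was hence not particular to complex I mRNAs.

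**Figure D5:**
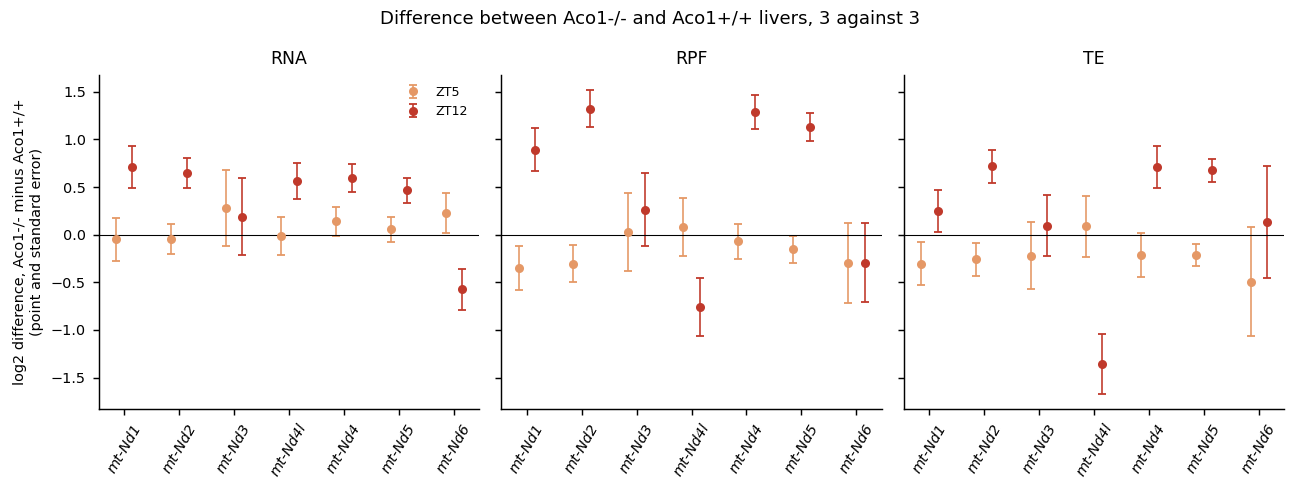
Differences between Aco1-/- and Aco1+/+ livers at ZT5 and ZT12 for the 7 mRNAs in RNA, RPFs and TE, on the log2 scale, with points at the fitted difference and bars of 1 standard error (3 livers against 3). At ZT12 mt-Nd2, mt-Nd4 and mt-Nd5 lie above 0 in all 3 measures, mt-Nd6 lies below 0 in RNA (-0.58) and mt-Nd4l in TE (-1.36), while at ZT5 the differences lie between -0.49 (mt-Nd6 in TE) and 0.28.

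Against time, RPFs in the Aco1 line are likewise a description. In Aco1-/- livers the log2 difference between ZT12 and ZT5 was 1.41 (SE 0.18) for mt-Nd4, 1.33 (SE 0.15) for mt-Nd5, 1.09 (SE 0.20) for mt-Nd2 and 0.79 (SE 0.23) for mt-Nd1, all 4 without overlap (12.1% of all genes were above without overlap). The other 3 members lay lower at ZT12, mt-Nd3 at -0.21 (SE 0.40) and mt-Nd6 at -0.26 (SE 0.42) with overlap, and mt-Nd4l as the 1 member below without overlap (15.1% of all genes were). For mt-Nd4l the difference was -0.94 (SE 0.32), which became -0.33 with the first sequencing run of each library alone. In Aco1+/+ livers the same comparison gave 0.05 (SE 0.18) for mt-Nd4, 0.05 (SE 0.14) for mt-Nd5, -0.54 (SE 0.20) for mt-Nd2 and -0.45 (SE 0.23) for mt-Nd1. The 2 comparisons share no livers, and each has 3 livers a side.

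In TE against time, mt-Nd5 differed by 0.49 (SE 0.12) in Aco1-/- and by -0.39 (SE 0.12) in Aco1+/+ livers. The difference of mt-Nd4 in Aco1-/- livers was 0.82 (SE 0.22), and that of mt-Nd4l was -1.84 (SE 0.33). Resting on 8 to 80 RPF counts per library, the mt-Nd4l difference became -1.32 with the first sequencing run of each library alone. In Aco1+/+ livers the log2 TE of all 7 members was lower at ZT12, between -0.66 and -0.07, with mt-Nd2 at the low end.

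In the Ireb2 line at ZT5, RNA of all 7 members was higher in Ireb2-/- than in Ireb2+/+ livers by 0.14 to 0.71 on the log2 scale (median 0.47). For mt-Nd1 the levels were 5237, 5182 and 5464 CPM in Ireb2-/- and 4767, 5141 and 728 CPM in Ireb2+/+ livers, a log2 difference of 0.58 (SE 0.58, adjusted p = 0.915, edgeR). Without the liver with the low mitochondrial share the difference was 0.09 (SE 0.15), and over the 7 members the range then was -0.11 to 0.35. By edgeR's quasi-likelihood test 0 of 7 were called, against 0.00935% of all genes, with 0 under an unadjusted p of 0.05 and 0 by DESeq2, and without that liver 0 of 7 (0.00925% of all genes). The low RNA of that liver was among the values behind the choice of genes, so the results with all livers are not independent of it. With all livers, the 5 other mitochondrial mRNAs tested were higher too (median 0.48).

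RPFs pointed the other way at ZT5. All 7 members were lower in Ireb2-/- by 0.24 to 0.66 on the log2 scale, with fitted differences from -0.66 to -0.24 and a median of -0.51. For mt-Nd2 the levels were 185, 314 and 234 RPF CPM in Ireb2-/- and 489, 420 and 246 RPF CPM in Ireb2+/+ livers, a log2 difference of -0.65 (SE 0.28, adjusted p = 0.628, edgeR). Without the low-share liver the range was -0.89 to -0.42 and the lowest adjusted p 0.735 (edgeR), with 0 of 7 called (0.00925% of all genes) and every Ireb2-/- liver below both remaining Ireb2+/+ livers for 6 of 7 members and 10.1% of all genes. With all livers, none passed in edgeR (0 of 7, against 0.0654% of all genes) and 1, mt-Nd2, was under an unadjusted p of 0.05 (817 of all genes), while DESeq2 called 0. RPFs of the 5 other mitochondrial mRNAs tested were lower in Ireb2-/- livers too (median -0.52).

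TE at ZT5 was lower in Ireb2-/- for all 7 members, by fitted log2 differences from -1.45 for mt-Nd1 to -0.35 for mt-Nd6 (SE 0.53 and 0.17, adjusted p = 0.694 and 0.735, edgeR). For 5 of 7 members, mt-Nd1, mt-Nd2, mt-Nd3, mt-Nd4l and mt-Nd5, every Ireb2-/- liver was below every Ireb2+/+ liver, as were 6.05% of all genes. Without the low-share liver the differences ran from -0.996 to -0.51, so the direction remained in all 7 while the size of most members shrank, 6 of 7 members were below without overlap (11.8% of all genes), 0 were called (0.00925% of all genes) and the lowest adjusted p was 0.694 (edgeR). With all livers, by edgeR 0 of 7 were called, against 0.00935% of all genes, although 5 were under an unadjusted p of 0.05, as were 750 of 10696 genes. DESeq2 called 0. The low RNA of that liver enters its TE, so these counts with all livers are not independent of the choice of genes. With all livers, the 5 other mitochondrial mRNAs tested were lower in TE too (median -1.35), each without overlap. The lower TE was hence not particular to complex I mRNAs. All members share the libraries of a liver, so their common direction is not 7 separate results.

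Cell markers also differed between the Ireb2 genotypes. Hepatocyte markers summed to 141981 to 156085 CPM in Ireb2-/- and 120341 to 136942 CPM in Ireb2+/+ livers at ZT5, and to 153054 to 168847 against 133523 to 145259 CPM at ZT12, in neither case with overlap. At ZT5 the neutrophil list (2.85 to 3.58 against 0 to 1.01 CPM) and the lymphocyte list (1.28 to 2.37 against 0.717 to 1.01 CPM) were also higher in Ireb2-/- livers, and at ZT12 the endothelial list (395 to 408 against 411 to 471 CPM) and the red cell list (14.7 to 16.7 against 19.7 to 28.1 CPM) were lower. Their part in the values of the 7 mRNAs was not tested.

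At ZT12 the Ireb2 genotypes were close. RNA differences of the 7 members ran from -0.10 to 0.02, RPF differences from -0.10 to 0.33 and TE differences from -0.05 to 0.31 on the log2 scale. For mt-Nd5, RNA was 4023, 3496 and 4564 CPM in Ireb2-/- and 3806, 4146 and 4416 CPM in Ireb2+/+ livers, and RPFs were 298, 331 and 320 against 351, 216 and 354 CPM. In edgeR 0 of 7 were called in RNA (0.0187% of all genes), in RPFs (0.028% of all genes) and in TE (0% of all genes, with 381 genes under an unadjusted p of 0.05), with 0 under an unadjusted p of 0.05 and 0 by DESeq2 in each. These tests take their spread from all groups of the line, the low-share liver at ZT5 included.

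Against time in Ireb2+/+ livers, RPFs of all 7 members were lower at ZT12 by fitted log2 differences from -0.72 to -0.04, or from -0.96 to -0.23 without the low-share liver. The 5 other mitochondrial mRNAs tested were lower too, with a median of -0.62 with all livers. The level of mt-Nd5 went from 682, 510 and 329 to 351, 216 and 354 RPF CPM (-0.72, SE 0.31, adjusted p = 0.213, edgeR), and that of mt-Nd2 from 489, 420 and 246 to 279, 174 and 253 RPF CPM (-0.71, SE 0.28, adjusted p = 0.173, edgeR). None of the 7 was called, against 7.53% of all genes, with 2 under an unadjusted p of 0.05 (2317 of all genes) and 0 by DESeq2. Without the low-share liver mt-Nd2 was called, at -0.95 (SE 0.22, adjusted p = 0.0255, edgeR), as 1 of 7 members and among 5.91% of all genes, and mt-Nd5 was at -0.96 (SE 0.27, adjusted p = 0.0751, edgeR).

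RNA in the same livers differed by -0.05 to 0.91 on the log2 scale, and by -0.55 to 0.57 without the low-share liver, with 0 of 7 called (2.29% of all genes), 1 under an unadjusted p of 0.05 (1619 of all genes) and 0 by DESeq2. TE was lower at ZT12 for all 7 members, between -1.48 and -0.23, or between -1.002 and -0.31 without that liver. For mt-Nd2 it was -1.44 (SE 0.41, adjusted p = 0.335, edgeR), and -0.999 (SE 0.30, adjusted p = 0.363, edgeR) without that liver. In TE 0 of 7 were called (0.533% of all genes), with 4 under an unadjusted p of 0.05 (879 of all genes) and 0 by DESeq2. The low RNA of that liver enters both measures, so the results with all livers are not independent of the choice of genes. With all livers, TE of the 5 other mitochondrial mRNAs tested was lower at ZT12 too (median -1.33), each without overlap.

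In Ireb2-/- livers the timepoints differed little in any member with high counts. RNA differences lay between -0.77, for mt-Nd3, and 0.19, RPF differences between -0.14 and 0.49, and TE differences between -0.09 and 0.96, the last again for mt-Nd3 on few counts. RPFs of mt-Nd5 were 234, 428 and 302 CPM at ZT5 and 298, 331 and 320 CPM at ZT12. By edgeR 0 of 7 were called in RNA (2.77% of all genes), RPFs (5.73% of all genes) and TE (0.00935% of all genes), with 0 under an unadjusted p of 0.05 and 0 by DESeq2 in each. The spread in these tests is shared by the 4 groups of the line, the low-share liver included: the SE of mt-Nd1 RNA was 0.58 between genotypes at ZT5, and 0.15 without that liver. With only the livers compared in the fit, 1 member, mt-Nd3, was called lower in RNA at ZT12. The share of all genes called in that fit is not given here, so this call has no background to be read against.

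Among themselves, the heavy-strand members with high counts moved together from liver to liver. Taking deviations of log2 RNA from the group means over 24 livers, the 6 pairs among mt-Nd1, mt-Nd2, mt-Nd4 and mt-Nd5 had Pearson r of 0.95 to 0.99, or 0.68 to 0.93 over 23 livers without the low-share liver. The light-strand mt-Nd6 correlated with the other 6 by 0.07 to 0.32 in RNA, or by -0.05 to 0.47 without that liver. In RPFs the pairs of the 4 mRNAs had r of 0.71 to 0.93 and those of mt-Nd6 0.51 to 0.69. Without that liver these were 0.66 to 0.94 and 0.43 to 0.65. All points of a liver share a library and its depth, so these values are a description.

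RNA and RPFs of the same liver were less close. Over deviations of 24 livers r was 0.49 for mt-Nd1, 0.50 for mt-Nd2, 0.31 for mt-Nd4, 0.52 for mt-Nd5, 0.18 for mt-Nd6, 0.51 for mt-Nd3 and 0.09 for mt-Nd4l. Without the low-share liver it was 0.65, 0.67, 0.62, 0.74, 0.16, 0.53 and -0.16 in the same order.

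Of all genes, mt-Cytb, mt-Co1 and mt-Atp8 were most like the 7 members summed. Over the 24 livers the log2 level of mt-Cytb had an r of 0.97 in both RNA and RPFs, and that of mt-Co1 0.95 in RNA and 0.98 in RPFs. Without the low-share liver the RNA values were 0.90 for mt-Cytb and 0.83 for mt-Co1. The low-count mt-Co3 had r of 0.79 in RNA (0.29 without that liver) and 0.78 in RPFs, and mt-Atp6 0.88 in RNA (0.61 without it) and 0.46 in RPFs. Of genes outside the mitochondrial DNA, the 5 highest in RNA were Dram2 (r 0.88), Tmem126a, whose product takes part in complex I assembly (0.86), Eif4g2 (0.85), Lamp1 (0.85) and Kctd12b (0.84). Each fell to 0.50 to 0.71 without the low-share liver. In RPFs they were Lims2, Tfg, Cyp4a32 and Nipsnap3b (each 0.71) and Hsd17b11 (0.69), and these kept values of 0.68 to 0.76.

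The nuclear-encoded subunits are given beside the members as a description, since the Aco1 contrast at ZT12 is the one the genes were chosen on and the difference between the lists was not tested. At ZT12 the 36 nuclear-encoded subunits tested had a median log2 difference between Aco1-/- and Aco1+/+ livers of -0.14 in RNA, -0.16 in RPFs and 0.02 in TE, against 0.56, 0.89 and 0.25 for the 7 members and medians of all genes of 0.0015, 0.02 and 0.01. In RPFs they ranged from -0.74 (SE 0.18) for Ndufv3 to 0.59 (SE 0.31) for Ndufs5. The 18 complex I assembly factors had a median RPF difference of -0.12 (from -0.49 for Ndufaf3 to 0.09 for Ecsit). For 21 factors of mitochondrial RNA synthesis and processing it was 0.09 (from -0.22 for Grsf1 to 0.60 for Tfb2m), and for 12 mitochondrial translation factors -0.01 (from -0.33 for Mtif2 to 0.70 for Rmnd1). Between genotypes, edgeR called 0 genes of the 4 lists in the comparisons tested, where 0% to 0.0654% of all genes were called.

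Against time, no list had a larger share of calls in RNA over the 4 genotypes than the 22.1% of all genes. There 4 of 21 RNA factors rose (Fastkd1, Lrpprc, Supv3l1 and Tbrg4), as did 3 of 18 assembly factors (Ndufaf4, Ndufaf6 and Dmac2) and 1 of 36 subunits (Ndufs1), while 1 of 12 translation factors fell (Mtif3). Fastkd1, a mitochondrial RNA-binding protein, rose at ZT12 by 0.52 on the log2 scale (SE 0.09, adjusted p = 5.28e-05, edgeR), and Lrpprc, which stabilises heavy-strand mitochondrial mRNAs, by 0.34 (SE 0.07, adjusted p = 0.000385, edgeR). The assembly factor Ndufaf4 rose by 0.66 (SE 0.12, adjusted p = 0.000101, edgeR). These 3 calls, with those of Ndufaf6, Dmac2 and Supv3l1, passed in all 9 alternatives and all 24 fits with 1 liver left out.

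Other calls in the lists were less stable. Over the 4 genotypes, Ndufs1 (0.22, SE 0.07, adjusted p = 0.0298, edgeR) passed in 7 of 9 alternatives, and Mtif3, an initiation factor (-0.34, SE 0.12, adjusted p = 0.0317, edgeR), in 5 of 9, being lost with DESeq2 and with TMM scaling. Tbrg4 was at 0.32 but at -0.38 when all columns were counted. In Aco1+/+ livers alone (7.05% of all genes called), RNA of Ndufs1, Ndufaf4, Lrpprc and Fastkd1 rose by 0.55 to 0.87 on the log2 scale, and with 1 liver left out they passed in 2, 2, 4 and 2 of 6 fits. In Aco1-/- livers (5.15% of all genes called), Ndufaf4 and Dmac2 rose by 0.91 and 0.86 and passed in 3 and 2 of 6 such fits. With the first sequencing run alone, Ndufaf4 was lost in both genotypes (adjusted p = 0.257 and 0.388, edgeR) and Fastkd1 in Aco1+/+ livers (adjusted p = 0.132, edgeR).

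In RPFs of Ireb2+/+ livers, where 7.53% of all genes were called against time, Tefm, a transcription elongation factor of mitochondria, fell at ZT12 by 0.59 (adjusted p = 0.0341, edgeR) and Mtif2, an initiation factor, by 0.47 (adjusted p = 0.0348, edgeR). Both calls were lost with DESeq2 (adjusted p = 0.128 and 0.149), and they passed in 2 and 3 of 6 fits with 1 liver left out. With the replicate block their adjusted p was 0.0526 and 0.0529 (edgeR). In Ireb2-/- livers Ndufaf4 rose in RPFs by 0.81 (adjusted p = 0.00951, edgeR), 1 of 18 assembly factors where 5.73% of all genes were called, and it passed in 4 of 6 such fits.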

How the data were processed

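Total RNA and RPFs were measured in 24 livers of separate mice (48 libraries, 77 sequencing runs). Per the labels and the study's methods, the authors trimmed reads with cutadapt 3.5, removed rRNA and tRNA reads with Bowtie2, aligned the rest with STAR 2.70f and deposited raw counts per gene and run. How reads were counted (tool and strand) is not given in the sources used here, nor is what each of the 5 columns holds, and the third was read as CDS counts. Runs of a library were summed. Genes were filtered with filterByExpr (minimum count 10), scaled by the upper quartile and fitted with edgeR 4.0.16 (quasi-likelihood test, Benjamini-Hochberg adjustment over 10696 genes, threshold 0.05), each line in its own fit. TE was tested over both kinds of library, with a term per mouse and an RPF term per group. The log2 TE of a liver used a prior count of 0.5. DESeq2 1.42.0, other scalings and filters, and leaving out each liver were alternatives, and the fit was tested on simulated data. Locations came from RefSeq (GRCm38.p6). The members and gene lists were chosen with earlier results of these data known. Named genes were the 13 mitochondrial mRNAs, genes of 4 nuclear lists that were called or at a list's extremes, the 5 genes most like the members in each measure, and the targeted genes.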

Additional observations from a re-analysis of the deposited data

Results flagged for a closer look

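In 2 of 168 pairs of contrasts looked at, every liver of a group lay on opposite sides between genotypes of the Aco1 line. The RPF level of mt-Nd2 was lower at ZT12 than at ZT5 in Aco1+/+ livers (-0.54 on the log2 scale) and higher in Aco1-/- livers (1.09), which differ by 1.63. The log2 TE of mt-Nd5 was lower at ZT12 in Aco1+/+ livers (-0.39) and higher in Aco1-/- livers (0.49), which differ by 0.89. Neither difference was tested, and both use the ZT12 livers on whose RPFs the genes were chosen. With 3 livers per group, single livers were not tested as outliers.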

How the results depend on the processing

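Counts of members called kept within 1.5 times of the reported value in 185 of 189 alternatives, and in 99 of 126 with 1 liver left out. Most of the comparisons had 0 members called to begin with, so these totals say little on how stable the calls were. With 1 liver left out, 24 counts fell below that limit. All of these were in RNA against time, in Aco1+/+ livers or over the 4 genotypes. In RNA, 1 member was called against time in Ireb2-/- livers (mt-Nd3) when only the livers compared were fitted, and over the 4 genotypes 1 in place of 2 without a filter on low counts, with the first run alone and with a replicate block. The replicate numbers did not pair the livers (median r of same-numbered deviations -0.009 to 0.024), and with the replicate block 5 members in place of 4 were called in RNA against time in Aco1-/- livers. With all columns counted, the RNA difference of mt-Nd5 between Aco1 genotypes at ZT5 was -0.016, and that of Tbrg4 over the 4 genotypes -0.38. Leaving out 1 liver gave 0 to 1 members in RNA against time in Aco1+/+, 3 to 6 in Aco1-/-, 1 to 2 over the 4 genotypes, and 0 to 1 in each of RNA, RPFs and TE in Ireb2+/+ livers (mt-Nd4l in RNA without replicate 2 at ZT5, mt-Nd2 in RPFs without replicate 3 at ZT5, mt-Nd4l in TE without replicate 3 at ZT12). The median TE difference between Aco1 genotypes at ZT12 lay between 0.10 and 0.55, the latter without replicate 2 of Aco1-/-. The RPF difference of mt-Nd4 at ZT5 lay between -0.16 and 0.044, turning positive without replicate 1 of either genotype. With the first run alone, the RPF difference of mt-Nd3 between Aco1 genotypes at ZT12 was -0.57. The causes were not tested. Depth limited mt-Nd3 and mt-Nd4l most, at 4 to 31 and 8 to 80 RPF counts per library.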
